A study of Mus musculus with 2 samples.

Results

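The nuclear-encoded subunits of the mitochondrial respiratory chain were measured in 2 newborn mouse livers. The members are all protein-coding genes whose symbols follow the names of the subunits of complexes I to V (Nduf with a, b, c, s or v and a number, Sdha to Sdhd, Uqcr, Cox4 to Cox8, and Atp5). They number 84 of the 21474 protein-coding genes with a row in the tables: 35 of complex I, 4 of complex II, 8 of complex III, 20 of complex IV and 17 of complex V. Ndufa4 and its paralog Ndufa4l2 were counted with complex IV, where the Ndufa4 protein is now placed. A further protein-coding gene ID of the current annotation, a second entry for Atp5o, has no row and was not analysed here, and 10 genes with matching symbols, all processed pseudogenes, were left out.

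Both livers came from mice of the strain B6NCrl on postnatal day 0, with no treatment or altered allele named. They were taken from littermates, pup 1 and pup 2, of 1 pregnant female, and the sex of the pups was not collected. Total RNA longer than 200 nt was sequenced from 10 ng per library, with spike-in RNA added. With 1 group of 2 animals no test between conditions was possible, so values are given for each liver, and each ± is an SD over the 2 livers. Expected counts summed to 42124582 in pup 1 and 41443673 in pup 2. All 6 hepatocyte markers and all 5 erythroid markers were detected in both livers, with summed levels of 68284 and 65474 TPM (a level per length that sums to the same total in each library) for the hepatocyte list and 64050 and 66902 TPM for the erythroid list.

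The respiratory chain passes electrons from NADH (complex I) or succinate (complex II) through ubiquinone to complex III, then through cytochrome c to complex IV, which reduces oxygen. Complexes I, III and IV pump protons across the inner mitochondrial membrane, and complex V, the ATP synthase, uses the resulting gradient to make ATP. All complexes except II join subunits encoded in the nucleus with subunits encoded in mitochondrial DNA. Several nuclear subunits exist as paralogs: Cox6a1, Cox7a2 and Cox8a are the forms of liver and most other tissues, while Cox6a2, Cox7a1 and Cox8b are the forms of heart and skeletal muscle, some of them also made in brown fat.

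Nearly all of these genes were expressed, and most at a high level. Detection, set at 1 TPM or more in each liver, was met by 81 of the 84 members, against 52.9% of all protein-coding genes. A level of 100 TPM or more in each liver was reached by 70 of the 84, against 4.57% of all protein-coding genes. The median level was 293 TPM in each liver, and the median of the 11354 detected protein-coding genes was 10.2 TPM. Together the 84 members held 3.30% ± 0.0113 of all TPM. Because they are short (median length 666 nt among the 81 detected members, against 2287 nt among all detected protein-coding genes), they took a smaller share of the reads, 1.81% ± 0.0117 of expected counts. Across genes, shorter members had higher TPM (Spearman's rho of -0.38 over 81 members), and the same held over all 11354 detected protein-coding genes (rho of -0.46); these genes share the same 2 libraries and are not independent replicates.

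**Figure D1:**
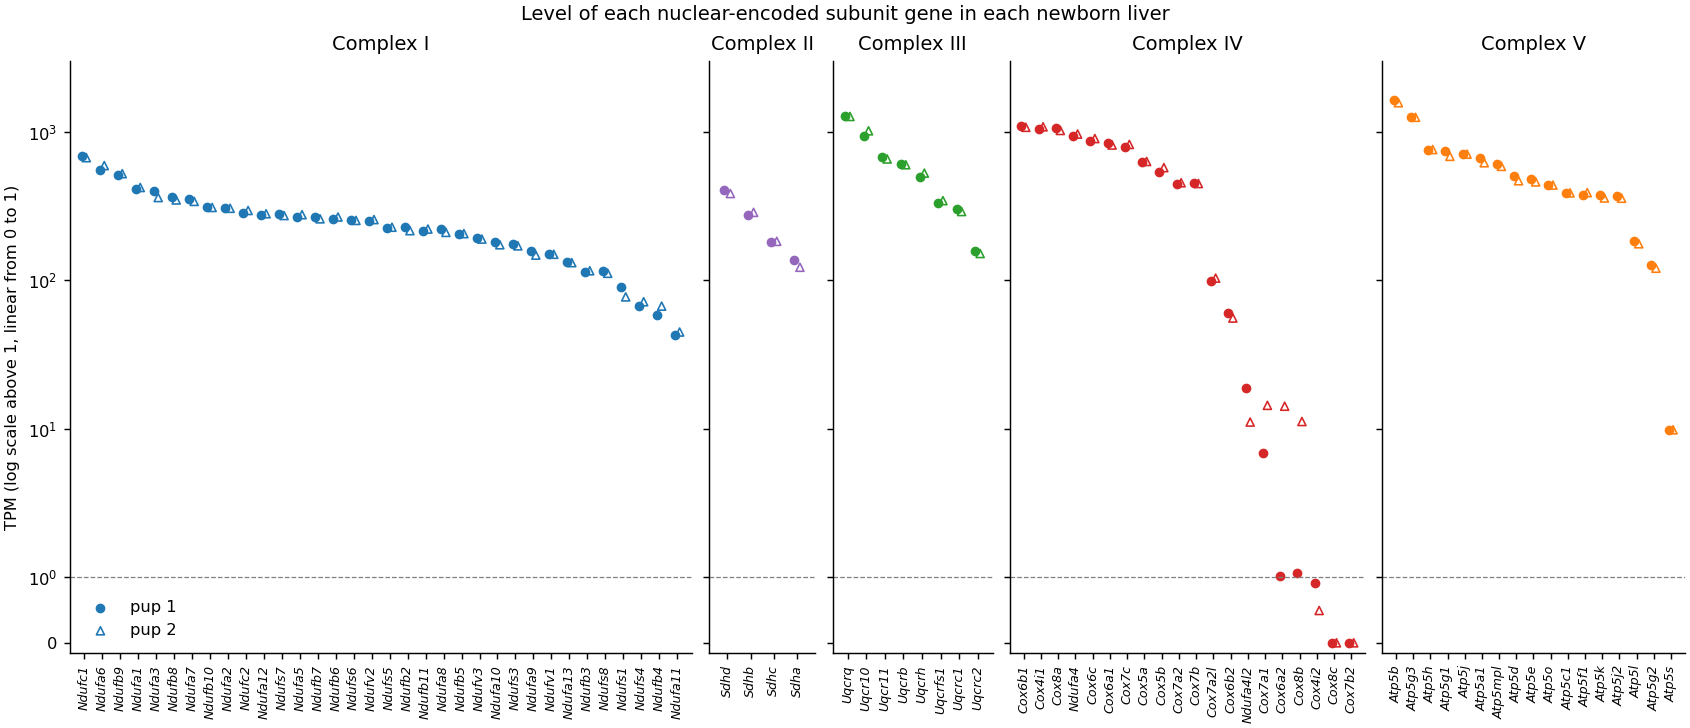
TPM of 83 of the 84 genes (log scale above 1 TPM, linear from 0 to 1) in pup 1 (filled circles) and pup 2 (open triangles), ordered within each complex by mean TPM; the dashed line marks 1 TPM. The markers of the 2 livers lie close together for all genes at 100 TPM or more, and the right side of the complex IV panel holds the tissue forms, from 58.0 TPM (Cox6b2) down to 0 (Cox8c and Cox7b2).

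Per length, complexes I and II had lower medians than complexes III to V, as the plot of levels by complex shows. The median of complex I was 228.55 TPM in the first pup and 227.54 TPM in the second, and that of complex II 227.08 and 234.7 TPM, so these ranges overlapped. The median of complex III was 552.7 TPM in pup 1 and 563.7 TPM in pup 2. Complex IV had a median of 449.4 and 451.1 TPM, and complex V of 477.9 and 459.6 TPM. Over all members, the medians of complexes III, IV and V did not overlap with each other or with those of complexes I and II. The place of complex IV depends on its 8 tissue forms, most of them at low levels, which are counted in its median. Its 11 general forms alone had a median of 835 and 823 TPM, above the medians of the other complexes. By counts over the library total, which are not per length, the medians were 126, 269, 254, 221 and 299 CPM for complexes I to V, so the low place of complex II held only per length. By summed TPM, complex V held 0.949% ± 0.0203, complex IV 0.894% ± 0.00800, complex I 0.872% ± 0.00247, complex III 0.482% ± 0.00489 and complex II 0.0985% ± 0.00141. In bulk tissue, fewer cells of a type and less RNA per cell cannot be told apart.

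Complex I, the NADH dehydrogenase, had all 35 of its members detected and 31 at 100 TPM or more in each liver. Its members ran from Ndufa11, an accessory subunit of the membrane arm, at 43.7 ± 1.45 TPM to Ndufc1, another accessory membrane-arm subunit, at 678 ± 11.6 TPM. Per length, the 7 nuclear core subunits, which take part in electron transfer, were lower than the 28 accessory subunits. Their medians were 149.83 and 149.54 TPM, against 255.8 and 256.1 TPM for the accessory subunits. Of the core subunits named here, Ndufs7 had 281 TPM in pup 1 and 273 TPM in pup 2. Ndufv2, an iron-sulfur subunit, had 249 and 256 TPM. Ndufs3 followed at 175 and 170 TPM. Ndufv1, the flavoprotein that takes electrons from NADH, had 149.83 and 149.54 TPM. Ndufs8 had 114.5 and 111.3 TPM. Ndufs1, the large iron-sulfur subunit, was the lowest of these at 89.3 and 77.2 TPM. The 4 structural modules of the complex had similar medians: 221 ± 0.332 TPM for the NADH-oxidising N module, 221 ± 0.332 TPM for the ubiquinone-reducing Q module, 226 ± 1.60 TPM for the proximal and 241 ± 1.74 TPM for the distal membrane arm. The core subunits are also the longer genes, with a median length of 1044 nt against 638 nt, and TPM in these libraries falls with length, as given above. By counts the order did not hold. The 7 core genes together held 0.106% of expected counts and the 28 accessory genes 0.343%, so per gene the core was not the lower.

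Complex II, succinate dehydrogenase, has only nuclear subunits, and all 4 were above 100 TPM. Sdhd, a membrane anchor, was the highest with 404 and 384 TPM. Sdhb, the iron-sulfur subunit, had 274 and 287 TPM. Sdhc, the other anchor, had 180.0 and 182.8 TPM, and Sdha, the flavoprotein that oxidises succinate, was the lowest at 137 and 122 TPM. No ranges overlapped between these 4 genes. Sdhd exceeded Sdha by 3.04-fold in mean TPM. Sdha is also the longest of the 4 genes, with a length of 2694 nt in pup 1. By counts it had 12649 and 11375, and only Sdhd was above it, with 17080 and 16329.

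In complex III, the cytochrome bc1 complex, the small accessory subunits were per length above the larger nuclear subunits in both livers. The 5 small subunits had a median of 666 ± 14.2 TPM, from Uqcrh at 511 ± 22.8 TPM to Uqcrq at 1271 ± 2.26 TPM. Uqcrfs1, the Rieske iron-sulfur protein, had 334 and 344 TPM. Uqcrc1, a core protein, had 302 and 290 TPM, and Uqcrc2, the other core protein, was the lowest member of the complex at 156 and 151 TPM. The small subunits are also the shorter genes, and by counts this order did not hold. Uqcrc1 had 16590 and 16065 counts, more than any small subunit, and Uqcrc2 had 8607 and 8447.

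Complex V had all 17 members detected, and its member Atp5b was the highest of all 84. Atp5b, the catalytic beta subunit of the F1 head, had 1642 TPM in pup 1 and 1572 TPM in pup 2. Atp5a1, the alpha subunit that alternates with beta in the head, had 663 and 619 TPM. Atp5d, the delta subunit of the central stalk, had 505 and 468 TPM. Atp5e, the epsilon subunit of that stalk, had 478 and 460 TPM, a range that overlapped that of Atp5d. Atp5c1, the gamma subunit that turns within the head, had 385 and 388 TPM. The lowest member was Atp5s, also called factor B, at 9.73 and 9.81 TPM, and all other members exceeded 100 TPM in both livers. The 3 genes for the c ring, Atp5g1, Atp5g2 and Atp5g3, encode the same mature protein with different import sequences. Their summed level was 2134 and 2057 TPM, of which Atp5g3 held 60.0% ± 1.32, Atp5g1 34.1% ± 1.29 and Atp5g2 5.88% ± 0.0314. Near-identical copies took 56.3% and 58.0% of the joint counts of Atp5g2, as described below, and with the counts of copies added the shares were 54.1% ± 0.913, 33.5% ± 1.14 and 12.4% ± 0.224, in the same order.

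Complex IV, cytochrome c oxidase, held 2 distinct sets of nuclear genes. All 11 general forms were above 100 TPM, from Cox7b at 450 ± 2.17 TPM to Cox6b1 at 1087 ± 19.2 TPM, with a median of 829 ± 8.92 TPM. The 8 tissue forms had a median of 6.07 ± 7.12 TPM, and the 3 members of the whole chain that were not detected, Cox4i2, Cox7b2 and Cox8c, are all among them.

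In every pair of related genes the same gene was the higher in both livers, and where a general and a tissue form were paired this was the general form. The ratio in a pair, on log2(TPM + 0.01), was called larger than the spread if it had 1 sign in both animals and a mean over 3 SD from 0. This held for 13 of 14 pairs, of which Cycs with Cyct and Slc25a5 with Slc25a4 lie outside the naming rule. In 3 of the 13, the second gene had no counts in either liver. There the SD reflects the first gene alone over the added 0.01, so meeting the criterion carries no weight. Cox4i1, the general form of subunit 4, had 1047 and 1081 TPM, and Cox4i2, its lung and hypoxia form, had 0.90 and 0.49 TPM (20 and 11 counts). Cox7b had 451 and 448 TPM, and no count was given to Cox7b2, so Cox7b was at least 2372-fold and 2371-fold higher when Cox7b2 is set at the floor of 3 counts per library. Cox8a had 1059 and 1022 TPM, and Cox8c, a testis form, had no counts, so Cox8a was at least 4736-fold and 4599-fold higher on the same floor. These limits and all count intervals below cover counting error only.

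Cox6b2, the form of subunit 6b known from testis, was the highest of the tissue forms. It had 60.3 TPM in pup 1 and 55.6 TPM in pup 2, from 881 and 835 counts, all of them free of ambiguity with other genes by the deposited posterior SD of 0. Cox6b1, the general form, had 1100 and 1073 TPM, a log2 ratio over Cox6b2 of 4.23 ± 0.06. The counts of Cox6b2 were spread over 9 annotated transcripts, of which the most abundant, Cox6b2-201, had 17.2 and 20.8 TPM. Of the testis markers, Tnp1 and Cyct had no counts in either liver, Prm1 had 1 and 0 counts, and Ldhc had 7 and 3 counts.

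Ndufa4l2, the hypoxia-associated paralog of Ndufa4, had 18.7 TPM in pup 1 and 11.1 TPM in pup 2 (573 and 341 counts), against 939 and 966 TPM for Ndufa4. In counts per total of the library it was 1.65-fold higher in pup 1 (exact 95% interval 1.44 to 1.90). An exon of Ndufa4l2 overlaps one of Shmt2 on the opposite strand over 32 bases, Shmt2 took 4712 and 3911 counts, and whether the counting used strand is not given in the sources used here. Cox7a2l, which helps to join complexes III and IV into supercomplexes, had 98.01 and 103 TPM, a log2 ratio of Cox7a2 over it of 2.16 ± 0.04.

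**Figure D2:**
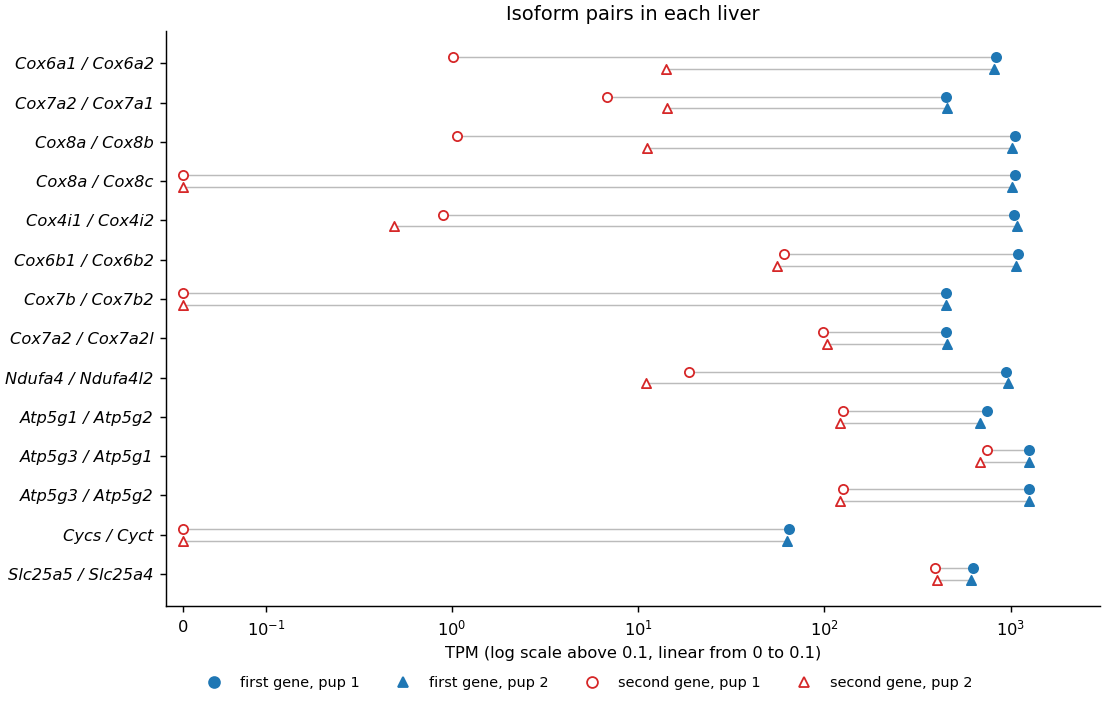
TPM (log scale above 0.1 TPM, linear from 0 to 0.1) of the first gene (filled blue) and second gene (open red) of 14 isoform pairs, in pup 1 (circles) and pup 2 (triangles). The blue markers of the 2 livers lie almost on top of each other, while the red markers of Cox6a2, Cox7a1 and Cox8b lie apart, with pup 2 the higher. Those of Ndufa4l2 and Cox4i2 lie apart too, with pup 1 the higher.

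The muscle forms of complex IV were present at low levels and differed between the livers. Cox6a2 had 1.01 TPM in pup 1 and 14.1 TPM in pup 2, from 20 and 283 counts. Cox8b had 1.07 TPM in pup 1 and 11.2 TPM in pup 2, from 10 and 105 counts. Cox7a1 had 6.79 TPM in pup 1 and 14.3 TPM in pup 2, from 64 and 136 counts. In counts per total of the library, pup 2 was 14.4-fold higher for Cox6a2 (exact 95% interval 9.14 to 23.9), 10.7-fold for Cox8b (5.58 to 22.9) and 2.16-fold for Cox7a1 (1.59 to 2.95). These intervals compare the 2 libraries and not animals in general, since each side is 1 library. The deposited credible intervals of the 2 livers, whose level is not stated, did not overlap for any of the 3 genes. They also did not overlap for some members that differed little, such as Ndufs1 (86.3 to 93.6 in pup 1, 74.5 to 81.4 in pup 2) and Sdha. The general partners of the 3 muscle forms hardly differed: Cox6a1 had 835 and 815 TPM, Cox7a2 447 and 454 TPM, and Cox8a 1059 and 1022 TPM. The muscle form held 0.121% of the summed TPM of Cox6a1 and Cox6a2 in pup 1 and 1.71% in pup 2. For Cox7a2 and Cox7a1 its share was 1.49% and 3.06%, and for Cox8a and Cox8b 0.101% and 1.08%. Cox6a1 over Cox6a2 was the 1 pair whose ratio did not exceed 3 SD (827-fold in pup 1, 57.6-fold in pup 2).

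All 12 skeletal muscle markers were higher in pup 2 as well, and their summed level was 55.6 TPM in pup 1 and 824 TPM in pup 2. Acta1, skeletal muscle actin, had 16.3 and 310 TPM, Ckm, muscle creatine kinase, 3.44 and 65.0 TPM, and Myl1, a fast myosin light chain, 5.32 and 134 TPM. Of the 6 heart markers, Actc1, which fetal skeletal muscle also makes, had 1.00 and 10.6 TPM. Of the other heart markers, Myl4 had 7.36 and 7.10 TPM and Myl7 2.29 and 2.05 TPM, and Myh6, Nppa and Tnni3 were at 0.40 TPM or less in both livers, so the summed heart list was 11.3 and 20.1 TPM. Of the 6 brown fat markers, Ucp1 had no counts in either liver, Dio2 and Elovl3 were at 0.24 TPM or less, and Cidea had 0.24 and 1.21 TPM. Ppara (161 and 145 TPM) and Plin5 (50.3 and 50.9 TPM), which hepatocytes also express, made up nearly all of that list's sum of 212 and 198 TPM. The part of other tissue in the levels of Cox6a2, Cox7a1 and Cox8b was not tested. Exons of Cox6a2 and Itgad overlap by up to 70 bases on opposite strands, and Itgad took 10.3 and 8 counts.

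A splice form of complex V was also higher in pup 2. Atp5c1 is known to be spliced in a tissue-dependent way: heart and skeletal muscle skip its exon 9, which liver and most tissues keep. In the annotated transcripts (GRCm38), Atp5c1-203 has this 37-nt exon at chr2:10056770-10056806 on the minus strand, and Atp5c1-201 joins exon 8 (chr2:10058996-10059092) directly to the last exon. The change alters where the coding sequence stops, so the 2 coding ends are shown here from the reference transcripts, 5′ to 3′, with the last 24 bases of exon 8 in lower case and the bases after it, up to and with the stop codon, in capitals.
Atp5c1-203, exon 9 kept: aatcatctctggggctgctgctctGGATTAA
Atp5c1-201, exon 9 skipped: aatcatctctggggctgctgctctGTAA
The coding sequence with its stop codon is 897 nt with exon 9 and 894 nt without it, a difference of 1 codon. The form with exon 9 had 373 TPM in pup 1 and 362 TPM in pup 2, and held 96.9% and 93.3% of the gene's TPM. The form without it had 9.55 TPM (deposited credible interval 6.54 to 14.7) in pup 1 and 22.9 TPM (15.8 to 29.1) in pup 2, or 2.48% and 5.90% of the gene's TPM. The 2 intervals did not overlap, and the level in pup 2 was 2.40-fold that in pup 1. The total for Atp5c1 hid this, at 385 and 388 TPM. The gain in pup 2 was 13.3 TPM for Atp5c1-201, beside 13.1 TPM for Cox6a2, 10.1 TPM for Cox8b and 7.54 TPM for Cox7a1. As ratios of TPM these differed more, at 2.40, 14.0, 10.4 and 2.11 in the same order. These transcript levels are the counting program's estimates, which divide the reads that fit both forms.

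**Figure D3:**
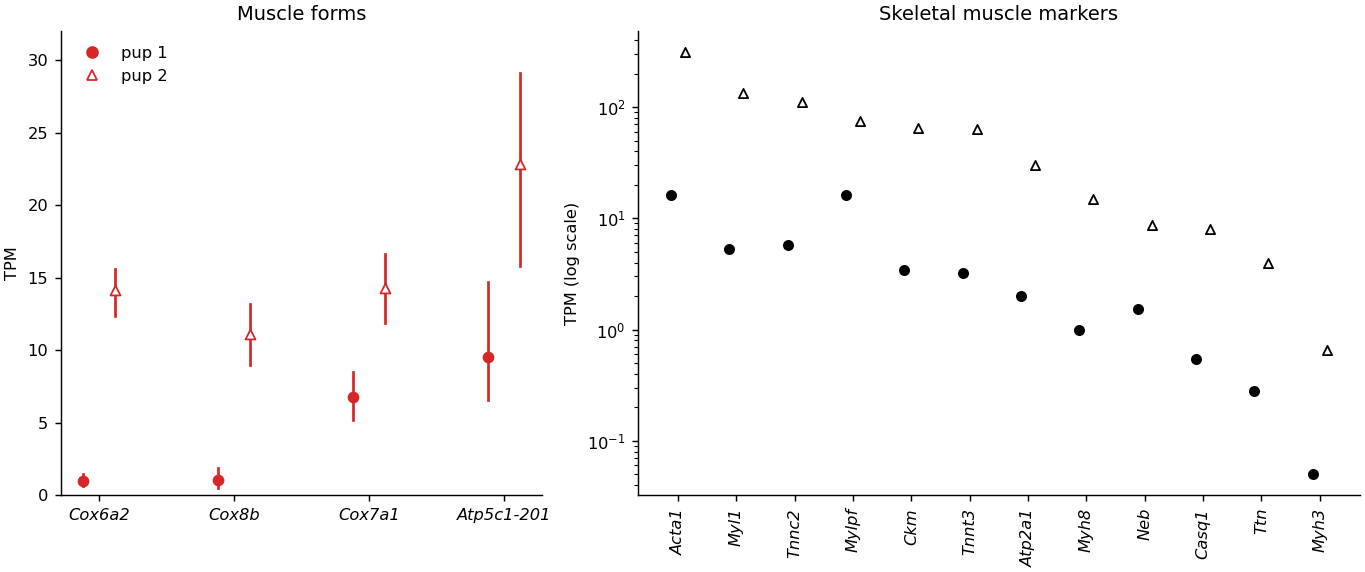
Left, TPM of Cox6a2, Cox8b, Cox7a1 and the Atp5c1 transcript without exon 9 in pup 1 (filled circles) and pup 2 (open triangles), with the deposited credible interval as a bar; right, TPM (log scale) of 12 skeletal muscle markers in the same livers. All 4 muscle forms and all 12 markers are higher in pup 2.

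Between the 2 livers, the muscle forms and Ndufa4l2 stood farthest apart. The log2 ratio of pup 2 over pup 1, on log2(TPM + 1), could be taken for the 81 members with a mean of 1 TPM or more. Members were called apart where this ratio was 1 or more in size and the deposited credible intervals did not overlap. This held for 2 of the 81 members, against 0.629% of 12711 genes, and both, Cox6a2 (2.91) and Cox8b (2.55), were higher in pup 2, a direction met by 0.566% of genes. No member was called lower in pup 2, against 0.0629% of genes. Cox7a1 lay just under the threshold at 0.98, and was called with a pseudocount of 0.1. Ndufa4l2 was the farthest in the other direction, at -0.71 with credible intervals that did not overlap, and the other 77 members ran from -0.21 (Ndufs1) to 0.20 (Ndufb4). Single libraries on each side allow no p-value. The median ratio was -0.01 over the members and -0.05 over the 12711 genes, with 37 members higher and 44 lower in pup 2. By complex the median was -0.01 for complex I, -0.03 for II, -0.01 for III, 0.04 for IV and -0.06 for V. These directions depended on the scaling: on counts scaled by TMM, a factor per library, the median was 0.05 over the members and 0.0036 over all genes, with 66 members higher and 15 lower in pup 2, and it was 0.05, 0.05, 0.06, 0.10 and 0.01 for complexes I to V. By the same scaling 51.0% of all genes were higher in pup 2, against 36.6% on TPM. Among the 71 members with a mean of 100 TPM or more the ratios ran from -0.16 (Sdha) to 0.11 (Uqcr10), with an SD across genes of 0.06, beside 0.19 for all 1076 genes at that level. Those 1076 genes are not limited to protein-coding ones and include the muscle marker Acta1 (4.17), and such values widen an SD.

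**Figure D4:**
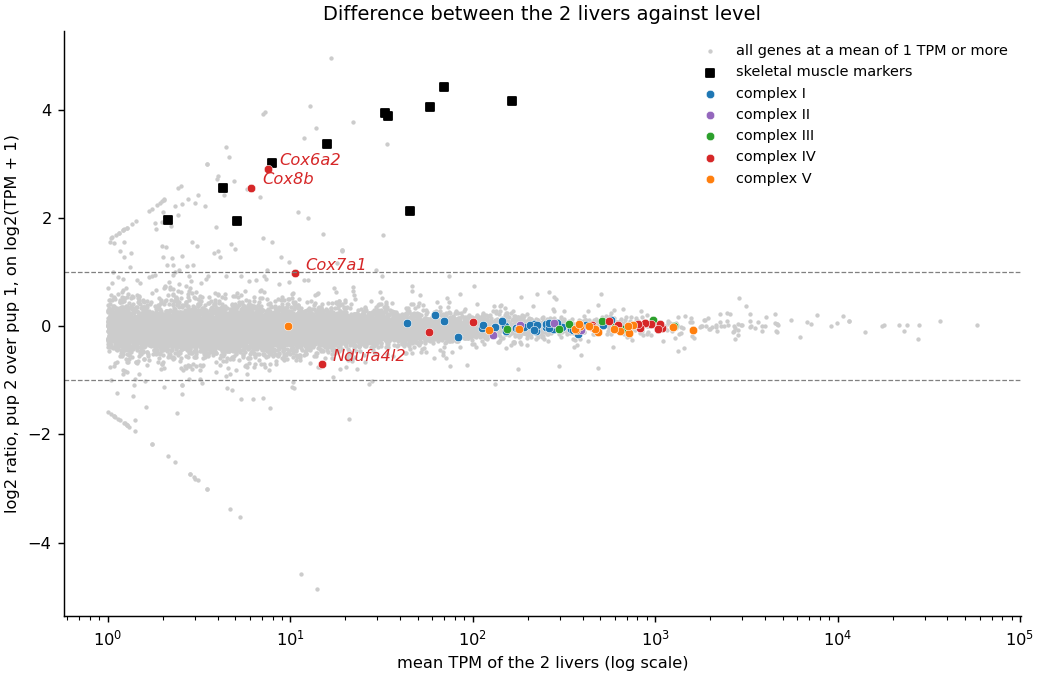
Log2 ratio of pup 2 over pup 1 on log2(TPM + 1) against mean TPM (log scale) for 12711 genes (grey), the members by complex (coloured circles) and the skeletal muscle markers with a mean of 1 TPM or more (black squares); dashed lines mark a 2-fold difference. Cox6a2 and Cox8b lie among the muscle markers, Cox7a1 lies at the upper line, and the other members lie within the lines.

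Many subunit genes have processed pseudogenes, and a few of these took a large part of the reads. A copy was counted where an annotated transcript of another gene matched a transcript of the member on the same strand at 95% identity or more over 100 bases or more. By this rule 27 members had 75 copies, and by the additional condition that the match covers 50% or more of the copy's transcript, 25 members had 42 copies, 39 of them pseudogenes. The copies held over 10% of the joint counts in both livers for 8 members by the first rule and for 4 under the additional condition, which was chosen after seeing the data and is used for the values that follow. Atp5l, subunit g of the ATP synthase, had 2683 and 2596 counts, while its 6 copies had 9282 and 9571 counts, or 77.6% and 78.7% of the sum. Nearly all of these went to Gm10221 (chr5:24581554-24581862), which is 100% identical over 309 bases. For Ndufb4, an accessory subunit of the distal membrane arm, copies held 74.7% and 74.3% of the counts, all of them in Ndufb4c (chr15:73809507-73809896), which is 100% identical over 390 bases. The copies of Atp5g2 held 56.3% and 58.0%, and those of Cox7c 18.8% and 18.5%. With the counts of their copies added over the member's own length, Atp5l would stand at 820 ± 5.91 TPM in place of 180 ± 5.01, Ndufb4 at 244 ± 21.8 in place of 62.4 ± 6.35, Atp5g2 at 287 ± 0.786 in place of 123 ± 3.85, and Cox7c at 995 ± 19.9 in place of 809 ± 18.6. The order of the c-ring genes stays the same on this sum, with Atp5g1 at 780 ± 42.7 TPM. Which locus these reads came from cannot be read from the tables, so the levels of genes with such copies, these 4 among them, are uncertain. Of the 81 detected members, 48 (59.3%) had a posterior SD of 0 in both livers, which marks a gene whose reads fit no other gene, against 69.1% of detected protein-coding genes.

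**Figure D5:**
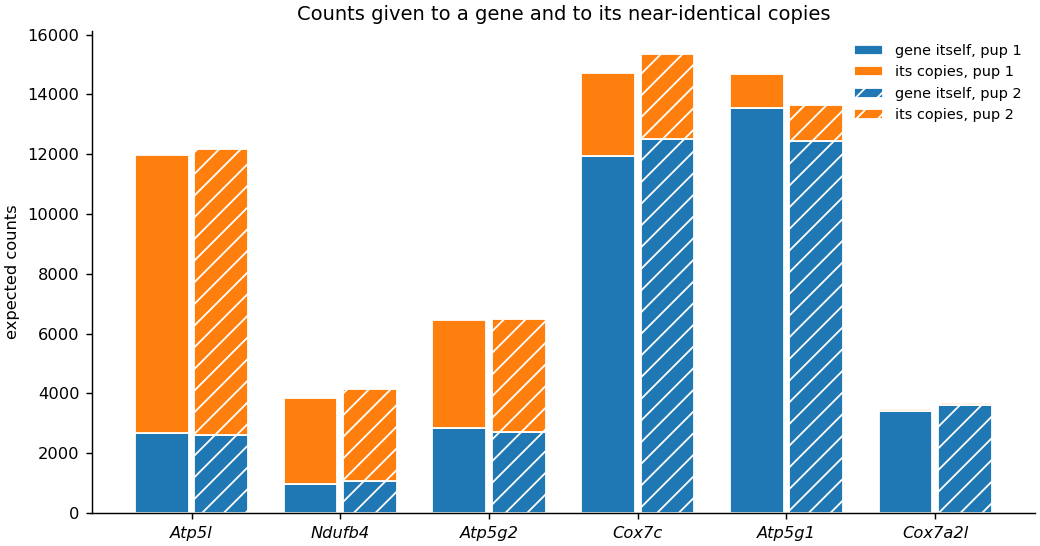
Expected counts given to 6 members (blue) and to their near-identical copies (orange) in pup 1 (plain bars) and pup 2 (hatched bars), for members whose copies held over 1% of the joint counts in both livers. The orange part is larger than the blue part for Atp5l, Ndufb4 and Atp5g2, in both livers.

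The transcripts behind a gene's level were not always coding ones, in members about as often as in other genes. By the mean of both livers, over 50% of the gene's TPM went to transcripts not annotated as protein-coding, such as those with a retained intron, for 8 of the 81 detected members (9.88%), against 8.13% of detected protein-coding genes. In 7 of the 8 the share was over 50% in each liver, and Ndufc1 had 49.4% and 52.2%. The highest shares were those of Ndufa5 (83.8% ± 0.404), Ndufb4 (81.5% ± 3.76) and Ndufa10 (80.2% ± 0.281). For Ndufb4 the share depends on how reads were divided with its copy Ndufb4c, which took 2880 and 3082 counts against 974 and 1068 for Ndufb4. Ndufv3, whose long form adds a large exon, was mostly in its short form (485 nt), with 87.3% and 88.0% of the gene's TPM, against 12.3% and 11.7% for the long form (1537 nt).

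The promoters were searched for short motifs of factors known to act on these genes. RefSeq windows (GRCm38.p6, 250 bases before to 50 after a start) were found for 68 members, in 73 windows, 2 of them through a synonym. The motifs, on both strands, were GCGCA, any base, then GCGC for NRF1; CCGGAAG for ETS factors such as GABP; AAGATGGCG for YY1; CTA, any 4 bases, then TAG for MEF2; and CANNTG, the E-box, for myogenic and other helix-loop-helix factors. A base could count for more than 1 motif. An NRF1 match lay in 18 of the 73 windows (24.7%), against 4.60% of all 32851 windows. By gene this was 17 of 68, against 11.8% of the 8997 detected protein-coding genes with a window. YY1 matches lay in 9.59% of member windows against 1.403% of all windows, and 6 of the 7 matches began at or after the start. ETS matches lay in 21.9% against 8.86%, and in 23.5% of member genes against 20.9% of detected genes. MEF2 matches lay in 1.37% of windows against 3.69%, in Cox5b alone, and E-boxes in 68.5% against 72.3%. By gene, YY1 matches lay in 10.3% of members against 3.73% of detected genes, MEF2 matches in 1.47% against 3.52%, and E-boxes in 70.6% against 67.6%. Of the 68 members with a window, 34 held no match for NRF1, ETS or YY1. A match of letters is a description and not a binding site, and the windows of members are richer in G and C than all windows (median 57.3% against 52.7%).

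The 250 bases before the start are printed for the 2 muscle forms with a window, for Cox8a as the general partner of Cox8b, and for 2 subunits chosen because they carry both NRF1 and ETS matches. They read 5′ to 3′ on the gene's strand in lower case, with motif matches in capitals.
Cox8b, muscle form, chr7:140900447-140900696, minus strand: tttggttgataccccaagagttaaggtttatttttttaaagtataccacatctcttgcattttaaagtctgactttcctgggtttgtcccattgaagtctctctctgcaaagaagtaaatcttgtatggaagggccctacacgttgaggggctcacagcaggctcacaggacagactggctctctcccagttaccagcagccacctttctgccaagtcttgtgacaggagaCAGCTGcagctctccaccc
Cox7a1, muscle form, chr7:30183921-30184170, plus strand: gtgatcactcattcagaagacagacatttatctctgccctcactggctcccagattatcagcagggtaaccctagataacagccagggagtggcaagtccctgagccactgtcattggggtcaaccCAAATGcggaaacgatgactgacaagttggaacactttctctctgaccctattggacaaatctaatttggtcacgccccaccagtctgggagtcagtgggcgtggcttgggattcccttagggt
Cox8a, general form, chr19:7217617-7217866, minus strand: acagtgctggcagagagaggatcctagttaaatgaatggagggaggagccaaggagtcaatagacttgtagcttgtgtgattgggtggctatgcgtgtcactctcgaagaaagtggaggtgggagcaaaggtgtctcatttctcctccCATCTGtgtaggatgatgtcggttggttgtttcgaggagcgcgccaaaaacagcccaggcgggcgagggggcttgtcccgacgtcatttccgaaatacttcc
Cox6a1, general form, chr5:115348959-115349208, minus strand: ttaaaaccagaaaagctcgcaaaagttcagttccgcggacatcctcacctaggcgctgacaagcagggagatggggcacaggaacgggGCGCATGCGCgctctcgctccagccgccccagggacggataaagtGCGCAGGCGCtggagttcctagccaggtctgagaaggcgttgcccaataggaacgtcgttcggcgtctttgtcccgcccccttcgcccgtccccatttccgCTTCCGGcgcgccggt
Sdhd, complex II anchor, chr9:50603850-50604099, minus strand: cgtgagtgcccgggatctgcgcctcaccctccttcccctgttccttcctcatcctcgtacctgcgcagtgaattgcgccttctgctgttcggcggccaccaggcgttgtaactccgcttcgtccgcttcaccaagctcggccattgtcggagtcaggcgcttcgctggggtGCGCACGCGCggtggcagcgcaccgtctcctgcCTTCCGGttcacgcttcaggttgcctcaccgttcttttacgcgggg
The capitals mark 1 E-box each in Cox8b, Cox7a1 and Cox8a. In Cox6a1 they mark 2 NRF1 matches and 1 ETS match, and in Sdhd 1 match of each. The letters of NRF1, ETS, YY1 and MEF2 did not occur in the printed stretches of the 2 muscle forms or of Cox8a. This says nothing about whether those factors act there. The printed stretches stop before the start, and over its whole window Cox8a held an ETS match, which reaches past the start. The whole windows of Cox8b and Cox7a1 held no ETS match. Neither did that of Cox7a2, the general partner of Cox7a1, which is not printed and also held no NRF1, YY1 or MEF2 match.

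Other genes of the chain, taken from lists outside the naming rule, lay in the same range where they are structural. Cyc1, the haem-bearing subunit of complex III, had 333 and 314 TPM, and Ndufab1, the acyl carrier subunit of complex I, 498 and 486 TPM. Usmg5 and Atpif1, a subunit and the inhibitor of the ATP synthase, had 1314 and 1277 TPM and 821 and 823 TPM. Cycs, cytochrome c, was lower per length at 64.6 and 62.8 TPM, and Cyct, its testis form, had no counts. By counts Cycs was not lower than Ndufab1 in pup 1 and close to it in pup 2, with 6644 and 6450 against 6616 and 6463. Slc25a5 and Slc25a4, which exchange ADP for ATP, had 631 and 613 TPM and 393 and 399 TPM. All 46 assembly factors, which build the complexes without remaining in them, were detected, but their median was 17.5 ± 0.148 TPM, and only Cox17, Cox16 and Cox14 had a mean above 100 TPM. The 12 regulators had a median of 8.21 ± 0.148 TPM, from Ppargc1b at 2.49 ± 0.375 TPM to Tfam, which packages mitochondrial DNA, at 30.4 ± 2.11 TPM. Ppargc1a, a coactivator of mitochondrial genes, had 6.08 and 3.64 TPM. No gene of these 3 lists was called 2-fold apart between the livers. The 13 subunits encoded in mitochondrial DNA had a median of 2255 TPM in pup 1 and 2676 TPM in pup 2. Relative to the nuclear median of the same complex, their median was higher by 1.67 ± 0.05 on the log2 scale in complex I, 2.57 ± 0.14 in complex III (1 gene), 2.80 ± 0.26 in complex IV and 4.29 ± 0.18 in complex V. The nuclear median of complex IV used here, 449 and 451 TPM, includes its 8 tissue forms. Against its 11 general forms alone, with a median of 835 and 823 TPM, the difference in complex IV would be smaller. For several of them the posterior SD of the count was above 0, so part of their reads fitted other genes too.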

How the data were processed

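Total RNA-seq of 2 newborn mouse livers was analysed from gene and transcript tables. Per the deposited file notes, reads were placed on mm10 with GENCODE M4; which programs aligned and counted them is not given there. The deposited expected counts are not whole where reads were shared. The deposited TPM and FPKM are levels per length, and the deposited percent per transcript is its share of the gene's TPM. Posterior mean TPM, credible bounds and the posterior SD of the count are also deposited values, and the bounds belong to the posterior mean.

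Symbols, biotypes and coordinates came from GENCODE M21 (GRCm38), matched by Ensembl ID; 42462 of 43346 IDs had a symbol. Values were read with Python 3.11.15 and pandas 2.3.3, TMM factors came from edgeR 4.0.16 as an alternative only, copies from blastn 2.17.0, and exact 95% binomial intervals from scipy 1.17.1. The 2-fold rule was tested on simulated counts that held counting error only. Such counts cannot show how often the rule calls genes between 2 real livers. Named genes were, per complex, the highest and lowest detected members, all members under 1 TPM, isoform pairs, members 2-fold apart, the core subunits of complexes I and III (1 gene is not reported here), complex II and the F1 head. Others were named after their values were seen, among them Ndufa5, Ndufa10, Ndufv3, Cox5b, Uqcrh, Atp5l, Cox7c and the Atp5c1 transcripts. Members, lists and motifs were chosen with earlier results of these data known. The 2 livers are littermates, so the SD covers 1 litter.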

Additional observations from a re-analysis of the deposited data

How the results depend on the processing

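CPM, which is counts over each library's total, in place of TPM weights genes by length and gave shares of 1.81% for all members and 0.449%, 0.107%, 0.224%, 0.374% and 0.660% for complexes I to V, and medians of 154 for all and 126, 269, 254, 221 and 299 for I to V, so that the order of the complexes changed. Over nuclear protein-coding genes only, the shares were 3.80%, 1.01%, 0.114%, 0.555%, 1.03% and 1.09%, and the median TPM 337, 263, 266, 643, 519 and 540. Posterior mean TPM gave shares of 3.25% for all, 0.860% for I, 0.475% for III and 0.881% for IV, and medians of 289 for all, 225 for I and 443 for IV. Adding near-identical copies moved the medians to 303 for all, 241 for I and 487 for V. With Ndufa4 and Ndufa4l2 in complex I, complex I held 0.969% and complex IV 0.798%. Rescaled FPKM equals TPM by construction, and leaving out 1 of 2 livers gives the value of the other, so neither bears on stability. TMM-scaled counts turned the sign of the median ratio between the livers, to 0.05 over all members and to 0.05, 0.05, 0.06 and 0.01 for complexes I, II, III and V. The number of members with a copy was 41 at 90% identity and 14 at 98%, the number of copies 1255 and 18, and 42 when the match had to cover 50% of the copy; members whose copies held over 10% of counts numbered 8 as set out first, 12 at 90% identity, 4 at 98% and 4 with that cover. The last condition, the joint levels and the move of Ndufa4 were chosen after seeing the data. Cox6a1 over Cox6a2 exceeded 3 SD with a pseudocount of 1 (log2 ratio 7.23). The number of members 2-fold apart was 3 with a pseudocount of 0.1, and 2 under the other settings, and 159 of all genes were called when credible intervals were not used, against 80. No paired analysis was possible because there is 1 group. Depth limits the muscle forms in pup 1, at 10 to 64 counts, and Cox4i2 at 20 and 11.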
